A study of Mus musculus with 6 samples.

Results

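The acid-secreting parietal cell of the stomach moves chloride, bicarbonate, sodium and water across its membranes, and 8 genes of this transport were examined. They are Slc4a2, Slc26a7, Slc26a9, Slc9a4, Slc12a2, Clic6, Cftr and Aqp4, and all 8 are among the 23284 genes of the deposited table. The genes were chosen by name, with earlier results of these data known. RNA was measured in 6 libraries of mouse parietal cells, 3 from control mice and 3 from mice that make noggin, a secreted protein that binds bone morphogenetic proteins (BMPs) and keeps them from their receptors. The design text gives the noggin mice a Nog transgene and a Cre recombinase, both under H+/K+ ATPase (proton pump) control and so made by parietal cells, and the red fluorescent reporter Rosa26-tdTom, and cells were sorted by that reporter. The labels call the control genotype Transgenic-Tom and the noggin genotype Transgenic-Tom-nog. Both groups therefore carry the reporter. The sources used here do not give the further alleles of the controls, or the age and sex of the mice. The sorted cell type is thus itself the source of the noggin. The labels call the replicates biological, and whether each was 1 mouse or a pool is not stated, so p-values measure the spread between libraries.

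A parietal cell secretes acid by pumping protons into its apical canaliculus in exchange for potassium. Each proton leaves a bicarbonate ion behind, which crosses the basolateral membrane in exchange for chloride, and the chloride then follows the proton into the lumen through apical pathways. Sodium-proton exchange, sodium-potassium-chloride cotransport and water channels hold the pH and the volume of the cell during this flux. BMP signalling is known as a regulator of parietal cell differentiation and of acid secretion.

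RefSeq promoter sequence (GRCm38.p6) was at hand for 3 of the 8 genes and is shown for them because they are the most abundant member, Slc4a2, the apical chloride pathway Slc26a9, and Cftr, the one member with a higher level in noggin libraries. Each line gives the 250 bases before an annotated transcription start, 5′ to 3′ on the plus strand, which is the coding strand of all 3 genes. None of these windows holds a base of an annotated exon. They lie at chr5:24424982-24425231, chr1:131743772-131744021 and chr6:18170437-18170686. The Slc4a2 window lies within the span of the gene, before one of its later starts. Capitals mark matches to the motifs searched.

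Slc4a2: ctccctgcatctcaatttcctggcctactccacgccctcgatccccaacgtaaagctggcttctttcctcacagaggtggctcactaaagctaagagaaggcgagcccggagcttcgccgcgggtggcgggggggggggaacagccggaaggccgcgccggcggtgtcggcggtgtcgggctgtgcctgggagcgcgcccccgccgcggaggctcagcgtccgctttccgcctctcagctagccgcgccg
Slc26a9: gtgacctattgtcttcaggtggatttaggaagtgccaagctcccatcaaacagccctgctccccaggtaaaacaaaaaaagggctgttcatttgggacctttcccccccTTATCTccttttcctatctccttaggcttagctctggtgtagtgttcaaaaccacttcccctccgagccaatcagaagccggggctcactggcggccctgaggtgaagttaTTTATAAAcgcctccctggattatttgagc
Cftr: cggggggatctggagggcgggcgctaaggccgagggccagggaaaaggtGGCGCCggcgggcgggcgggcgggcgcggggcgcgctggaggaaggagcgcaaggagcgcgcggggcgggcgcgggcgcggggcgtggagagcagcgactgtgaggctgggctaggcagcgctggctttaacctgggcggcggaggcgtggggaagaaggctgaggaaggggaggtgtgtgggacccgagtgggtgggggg

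On either strand, 5 motifs were searched: the estrogen-related receptor half-site AAGGTCA, the GC box bound by Smad1 and Smad5 GGCGCC, the Smad binding element GTCTAGAC, the GATA factor site AGATAA and the TATA box TATAAA. The shares of all 32851 promoter windows of this length that hold them were 4.08%, 9.59%, 0.167%, 9.99% and 12.4%. The Slc4a2 window, 69.2% G or C, held none of them, and neither did the window of a second annotated Slc4a2 start (chr5:24425594-24425843). The Slc26a9 window, 50.0% G or C, held 1 GATA factor site, read as TTATCT on the strand shown, 141 to 136 bases before the start, and overlapping TATA box matches on the opposite strands, from 30 to 23 bases before the start. The Cftr window, 76.4% G or C, held 1 GC box 201 to 196 bases before the start. These matches describe the letters of the windows, and binding was not measured here.

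The values are FPKM, in which fragments are divided by transcript length and library size, so the sequencing depth is unknown. Total FPKM lay between 595736 and 669124 in controls and between 797168 and 1188186 in noggin libraries. Nog itself was at 0.871 to 1.97 FPKM in controls and at 2281 to 2734 FPKM in noggin libraries, so each library matched its label. Atp4a and Atp4b, the subunits of the proton pump, were abundant in every library, with Atp4a at 14422 ± 1562 and 6275 ± 1176 FPKM and Atp4b at 19814 ± 2547 and 23024 ± 1930 FPKM in controls and noggin libraries (mean ± SD, n = 3 each, as for all means below). Summed parietal cell markers (10 of 11 listed symbols in the table) were at 32002 to 38776 FPKM in controls and 29641 to 31693 FPKM in noggin libraries. Of the 10, 3 were called lower by the test described below, and none was at 0 in any library. That list includes Slc26a7 and Aqp4 of the genes under study, and Slc26a7 is among the 3, so it is no separate check of them. Most of the sum is Atp4a and Atp4b. The list also holds Gif and Cblif, symbols of the same gene, intrinsic factor. In mice this is a chief cell gene, so the sum is not of parietal cells alone. Markers of other gastric cells were present too, with none at 0 in any library. Summed chief cell markers (8 of 9 listed genes in the table) were at 61011 to 112073 FPKM in controls and 131337 to 357873 FPKM in noggin libraries, pit cell markers (6) at 21973 to 26259 and 23120 to 49769 FPKM, mucous neck cell markers (5) at 2456 to 3362 and 10765 to 25864 FPKM, and enteroendocrine markers (8) at 442 to 2686 and 1897 to 28639 FPKM. All 5 neck cell markers and 2 of the endocrine markers were called higher, and 1 chief cell marker lower. Leukocyte markers (10) summed to 2.14 to 2.62 and 16.7 to 85.2 FPKM (1 called higher), and 1 of them was at 0 in every library. In bulk RNA, fewer cells of a type and less RNA per cell cannot be told apart, and the part of these other cells in the results below was not tested.

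Differences between groups were tested with limma on log2(FPKM + 1), over the 10644 genes that reached 1 FPKM in 3 or more libraries, and fold changes are on that scale, which understates the change of low genes. Of the 8 genes, 7 were tested and Cftr was too low. Of the 7, Slc4a2, Slc26a7 and Clic6 fell (Benjamini-Hochberg adjusted p under 0.05), 4 did not pass the test, and 0 rose. Over all tested genes 2.44% were called in either direction and 0.695% were called lower. Every one of the 7 had its 3 noggin values below its 3 control values, as had 18.0% of all tested genes. The median log2 fold change of the 7 was -1.24, against -0.03 over all tested genes, of which 51.7% were negative. As the genes were chosen with earlier results of these data known, these values of the set are descriptions and no independent test. Noggin means ranged from 19.6% of the control mean for Aqp4 to 56.7% for Slc9a4.

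**Figure D1:**
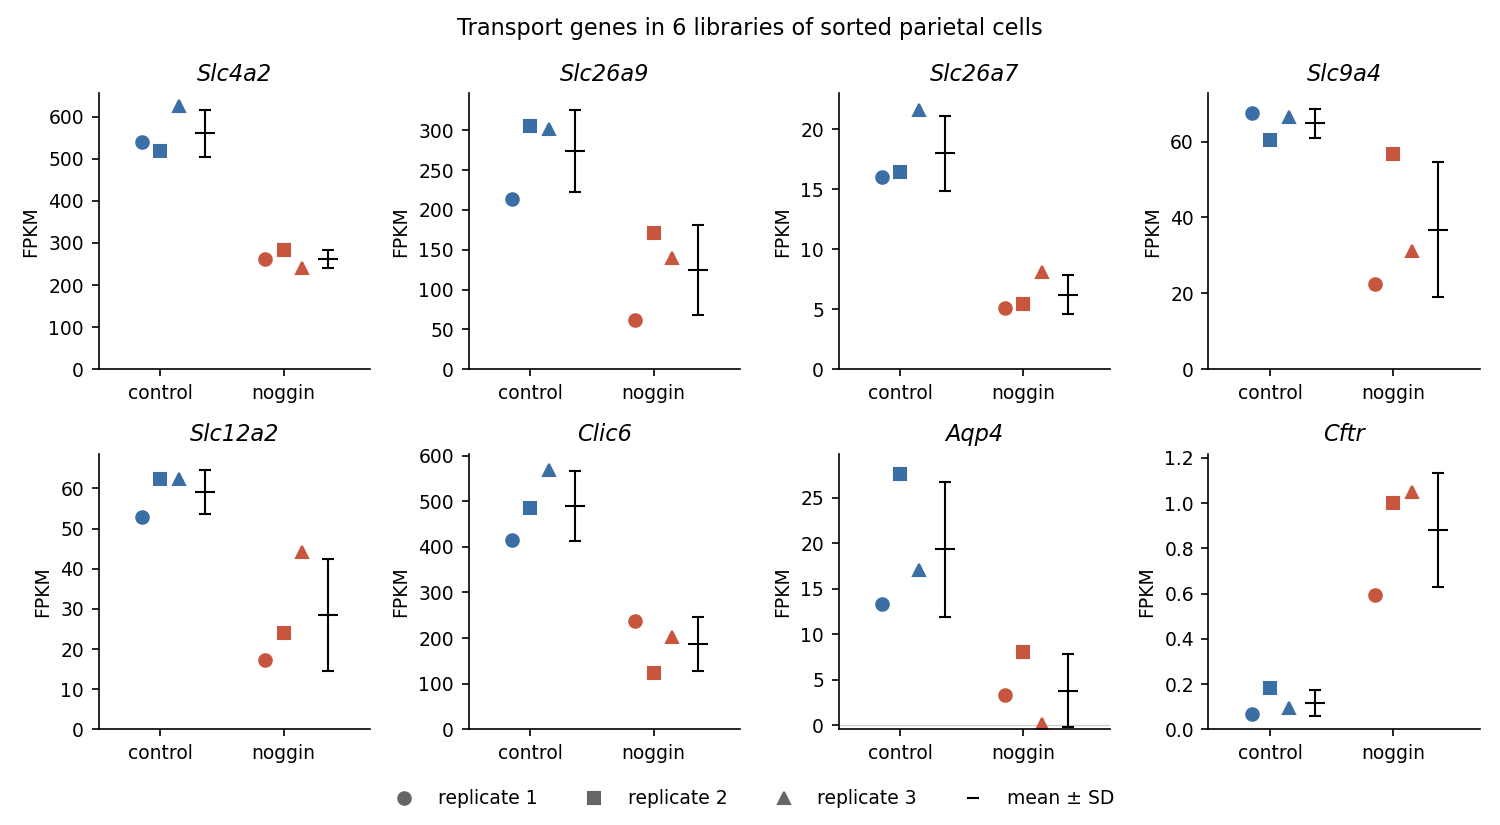
FPKM (vertical axes, each on its own scale) of the 8 transport genes in 3 control (blue) and 3 noggin (red) libraries, with symbols for replicates and bars for mean ± SD. The 7 genes from Slc4a2 to Aqp4 lie lower in every noggin library than in every control, and Cftr lies higher, at no more than 1.05 FPKM.

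Slc4a2 (chromosome 5, 24423837 to 24440950, plus strand, mm10), the anion exchanger that lets bicarbonate out of the cell across the basolateral membrane, was the most abundant of the 8. It was at 540, 518 and 625 FPKM in control replicates 1, 2 and 3 and at 263, 283 and 240 FPKM in noggin replicates 1, 2 and 3. The 3 noggin libraries lay close together and all below the lowest control. The mean fell to 46.7% of the control mean, with a log2 fold change of -1.09 (95% interval -1.52 to -0.67, limma adjusted p = 0.0356). Its median percentile among all genes of a library was 99.5 in controls and 97.7 in noggin libraries.

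Slc26a7 (chromosome 4, 14502430 to 14621805, minus strand), a second basolateral exchanger of chloride for bicarbonate in parietal cells, was far less abundant. It was at 16, 16.4 and 21.6 FPKM in control replicates 1 to 3 and at 5.11, 5.4 and 8.11 FPKM in noggin replicates 1 to 3. Noggin replicate 3 was the highest of its group and still below every control. The log2 fold change was -1.41 (95% interval -2.07 to -0.75, limma adjusted p = 0.04997), only just under the threshold.

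Slc26a9 (chromosome 1, 131744022 to 131771504, plus strand), a chloride transporter of the gastric epithelium that mice need for acid secretion, was at 214, 305 and 302 FPKM in control replicates 1 to 3. In noggin replicates 1 to 3 it was at 61.8, 171 and 140 FPKM. Noggin replicate 1 was well below the other noggin libraries, and control replicate 1 was the lowest control. The log2 fold change was -1.24 (95% interval -2.11 to -0.36) and did not pass the test (limma adjusted p = 0.108).

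Slc9a4 (chromosome 1, 40580081 to 40630725, plus strand) encodes a basolateral sodium-proton exchanger, also known as NHE4, that returns protons and takes up sodium. It was the most even member in controls, at 67.6, 60.5 and 66.5 FPKM in replicates 1 to 3, and was at 22.4, 56.7 and 31.2 FPKM in noggin replicates 1 to 3. Noggin replicate 2 came close to the lowest control, so the groups were separated by a narrow gap. The log2 fold change of -0.90 (95% interval -1.65 to -0.16) did not pass the test (limma adjusted p = 0.135).

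Slc12a2 (chromosome 18, 57878678 to 57946821, plus strand) encodes the basolateral sodium-potassium-chloride cotransporter NKCC1, which loads the cell with chloride. Its levels were 52.9, 62.3 and 62.3 FPKM in control replicates 1 to 3 and 17.2, 24.0 and 44.1 FPKM in noggin replicates 1 to 3. Here noggin replicate 3 was the one nearest to the controls. The log2 fold change of -1.13 (95% interval -1.90 to -0.37) did not pass the test (limma adjusted p = 0.101).

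Clic6 (chromosome 16, 92485736 to 92541243, plus strand), a member of the chloride intracellular channel family also called parchorin and known for its abundance in parietal cells, was the second most abundant member. It was at 415, 486 and 568 FPKM in control replicates 1 to 3 and at 237, 123 and 202 FPKM in noggin replicates 1 to 3. Noggin replicate 2, which held the highest noggin values of Slc4a2, Slc26a9 and Slc9a4, held the lowest of Clic6. The mean fell to 38.3% of the control mean, with a log2 fold change of -1.42 (95% interval -2.06 to -0.78, limma adjusted p = 0.0483).

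Aqp4 (chromosome 18, 15389496 to 15410982, minus strand), the basolateral water channel of parietal cells, had the lowest log2 fold change of the 7, -2.49, with the widest interval (-4.18 to -0.80). It was at 13.3, 27.6 and 17.1 FPKM in control replicates 1 to 3 and at 3.33, 7.99 and 0.0815 FPKM in noggin replicates 1 to 3. Noggin replicate 3 held very little of it, and the other noggin libraries also lay below every control. The change did not pass the test (limma adjusted p = 0.101), and without noggin replicate 3 the log2 fold change was -1.65 (limma adjusted p = 0.066). Without noggin replicate 2 it was -3.17 and passed (limma adjusted p = 0.0292).

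Cftr (chromosome 6, 18170687 to 18322768, plus strand), the cyclic AMP-gated chloride and bicarbonate channel, lay the other way at a very low level. It was at 0.0693, 0.182 and 0.0968 FPKM in control replicates 1 to 3 and at 0.594, 1.00 and 1.05 FPKM in noggin replicates 1 to 3, a 7.62-fold higher mean. The groups did not overlap. With every gene fitted and no filter on low values, its log2 fold change was 0.75 (95% interval 0.41 to 1.08), which did not pass the test (limma adjusted p = 0.119). All 5 neck cell markers also lay higher in every noggin library than in every control. So did 5 of 10 leukocyte, 3 of 8 enteroendocrine, 2 of 8 chief, 1 of 10 parietal and 0 of 6 pit cell markers. The part of any of these cells in the Cftr values was not tested.

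The order of the levels was nearly the same in both groups. In controls it ran from Slc4a2 (561 ± 56.3 FPKM) over Clic6 (490 ± 76.7), Slc26a9 (274 ± 51.7), Slc9a4 (64.9 ± 3.81), Slc12a2 (59.2 ± 5.43), Aqp4 (19.4 ± 7.42) and Slc26a7 (18 ± 3.12) to Cftr (0.116 ± 0.0585). Slc4a2 and Clic6, Slc9a4 and Slc12a2, and Aqp4 and Slc26a7 had overlapping ranges, and the other neighbours did not. In noggin libraries it ran from Slc4a2 (262 ± 21.8 FPKM) over Clic6 (187 ± 58.3), Slc26a9 (124 ± 56.4), Slc9a4 (36.8 ± 17.8), Slc12a2 (28.4 ± 14), Slc26a7 (6.21 ± 1.66) and Aqp4 (3.80 ± 3.97) to Cftr (0.883 ± 0.251). Clic6 and Slc26a9, Slc9a4 and Slc12a2, Slc26a7 and Aqp4, and Aqp4 and Cftr had overlapping ranges there. Slc26a7 and Aqp4, whose ranges overlapped in both groups, were the one pair that changed places. The summed level of the 8 genes was 1318 to 1663 FPKM in controls and 611 to 673 FPKM in noggin libraries. Slc4a2 made up 37.9 ± 2.92% (SD) of that sum in controls and 40.4 ± 3.87% in noggin libraries, Clic6 32.9 ± 1.35% and 29.1 ± 10.3%, and Slc26a9 18.4 ± 2.21% and 18.9 ± 7.90%, differences smaller than the spread of the noggin libraries.

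Ratios within a library do not depend on how that library was scaled, so each gene was also set against Slc4a2 as a log2 ratio of FPKM. Of 7 ratios, only that of Cftr did not overlap between groups, at -12.35 ± 0.769 in controls and -8.25 ± 0.490 in noggin libraries, a difference of 4.10. Of all tested genes, 58.0% had a ratio to Slc4a2 that did not overlap between groups, nearly all of them higher in noggin libraries (56.7%), so the Cftr ratio did not stand apart in this. Its two-sided exact permutation p = 0.1 is the smallest that 3 against 3 libraries allow (adjusted p = 0.7 over the 7 ratios). The Slc26a9 ratio was -1.05 ± 0.284 and -1.20 ± 0.775 (exact p = 0.9), the Slc9a4 ratio -3.11 ± 0.117 and -2.94 ± 0.619 (exact p = 0.7), and the Slc12a2 ratio -3.24 ± 0.163 and -3.31 ± 0.778 (exact p = 0.9). These 3 differences, -0.15, 0.17 and -0.07, were smaller than the spread of the noggin libraries, and their signs turned when 1 library was left out. Without noggin replicate 1 they were 0.30 for Slc26a9 and 0.24 for Slc12a2, without noggin replicate 2 they were -0.14 for Slc9a4 and 0.05 for Slc12a2, and without control replicate 2 that of Slc12a2 was 0.02. The ratios of Slc26a7 (-4.97 ± 0.110 and -5.43 ± 0.471, exact p = 0.3) and Clic6 (-0.20 ± 0.154 and -0.53 ± 0.581, exact p = 0.5) also overlapped. That of Aqp4 was -4.92 ± 0.603 and -7.66 ± 3.40 (exact p = 0.3), and its difference of -2.74 became -0.81 without noggin replicate 3, which alone stood at -11.52. With 3 libraries a group, such p-values do not show that the genes kept a fixed proportion.

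**Figure D2:**
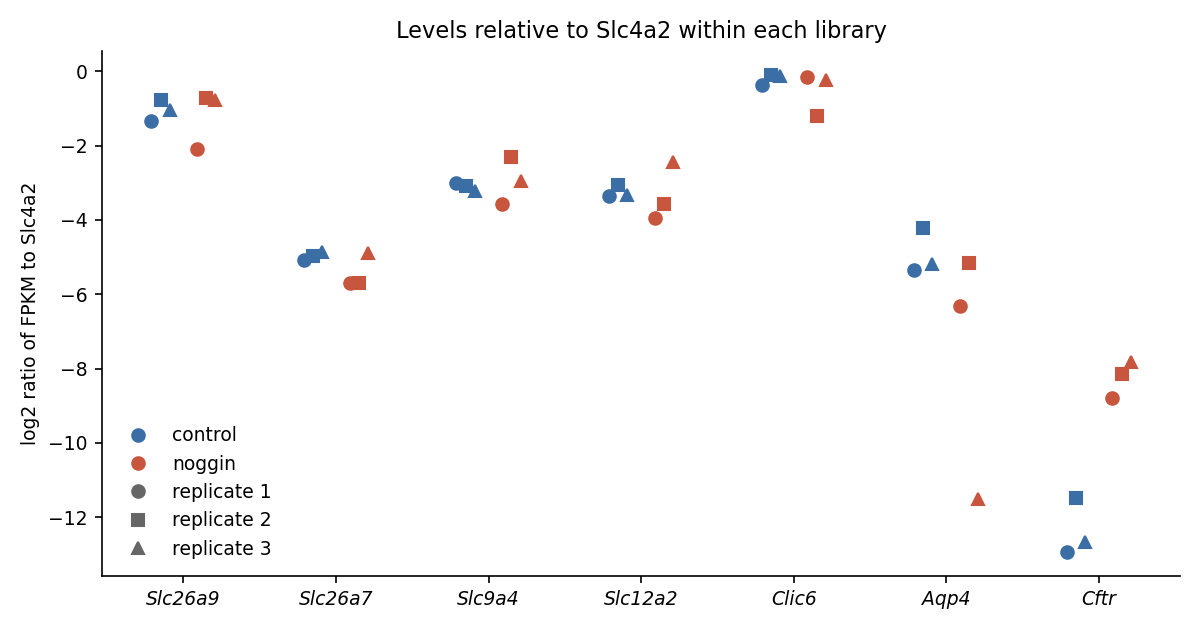
Log2 ratio of each gene's FPKM to that of Slc4a2 in the same library (vertical axis) for 7 genes, in control (blue) and noggin (red) libraries, with symbols for replicates. Cftr is the 1 gene whose groups do not overlap, and Aqp4 in noggin replicate 3 stands apart at -11.52.

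Slc4a2 and the pump subunit Atp4a were also compared, and a small spread over 3 controls does not show that they are proportional. Their log2 ratio was -4.66, -4.69 and -4.70 in control replicates 1 to 3 (SD 0.0194) and -4.37, -4.75 and -4.59 in noggin replicates 1 to 3 (SD 0.193). The groups overlapped, with a difference of 0.11 (exact p = 0.4). With the length trend removed the difference was 0.23 and the groups no longer overlapped (exact p = 0.1), and 56.6% of all tested genes had a ratio to Atp4a that did not overlap in that setting. The log2 fold change of Atp4a was -1.21 (limma adjusted p = 0.124), and that of Atp4b 0.22 (limma adjusted p = 0.814), which became -0.50 after rescaling to the same total and -0.56 with quantile normalization.

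Fold changes over all tested genes ran with transcript length, with a Spearman correlation of -0.554 across genes, which are not independent replicates. Of the 7 tested genes, 6 have median annotated transcript lengths of 3758 to 6520 bases. Aqp4 has 1281.5 bases, a median over 8 annotated transcripts. The values were therefore also fitted after the length trend of each library was removed. Which Aqp4 transcripts these cells make was not tested, and its corrected values below hold only for that median length. The 6 long genes then had log2 fold changes of -0.50 (Slc9a4) to -1.05 (Clic6), and Aqp4 had -2.95. The 3 calls ended, with adjusted p = 0.081 for Slc4a2 (log2 fold change -0.66), 0.219 for Slc26a7 (-0.89) and 0.188 for Clic6 (-1.05). The unadjusted 95% intervals lay below 0 for Slc4a2, Slc26a7, Clic6 and Aqp4 and reached above 0 for Slc26a9 (-1.52 to 0.02), Slc9a4 (-1.08 to 0.08) and Slc12a2 (-1.39 to 0.23).

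**Figure D3:**
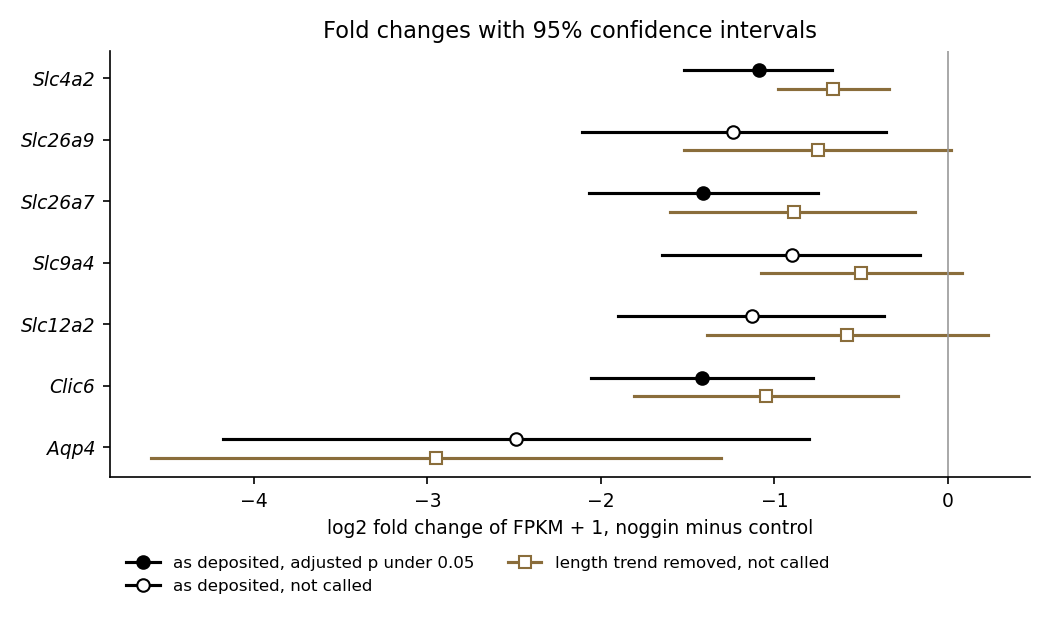
Log2 fold change (horizontal axis) of the 7 tested genes with 95% confidence intervals, from the deposited values (black, filled where the adjusted p is under 0.05) and after removal of the length trend (brown). The fold changes are negative in both fits. Only Aqp4 moves further from 0 when the trend is removed, taken at its median length of 1281.5 bases over 8 annotated transcripts.

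The 3 calls also changed when 1 library was left out, as did the share of all tested genes called lower (0.695% as reported). That share was 0.047%, 0.0658% and 0.047% without control replicate 1, 2 and 3. It was 0.197% without noggin replicate 1 and 2.63% without noggin replicate 3. Slc4a2 was no longer called when any 1 of the control replicates 1, 2 and 3 or the noggin replicates 1 and 3 was left out (log2 fold changes of -1.01 to -1.15 over all 6 omissions), and Clic6 behaved in the same way (-1.15 to -1.62). Slc26a7 lost its call without control replicate 1, 2 or 3 or noggin replicate 1 (-1.28 to -1.59 over all 6). Without noggin replicate 2, 6 of the 7 genes were called lower, Slc26a9, Slc9a4 and Aqp4 among them, with 7.75% of all tested genes called lower. Slc12a2 was called without noggin replicate 3 (-1.49, limma adjusted p = 0.0312). After every library was rescaled to the same total FPKM, the median log2 fold change of the 7 genes was -1.95 and that of all tested genes -0.63, with Slc4a2 at -1.81 and Clic6 at -2.14. The value of Aqp4 depended on the pseudocount and was -3.78 with 0.01. In all 17 alternative settings each of the 7 genes kept a negative log2 fold change. As the groups of each gene did not overlap, only rescaling, quantile normalization and removal of the length trend could have turned a sign. The other settings could not, and are no check of the direction.

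**Figure D4:**
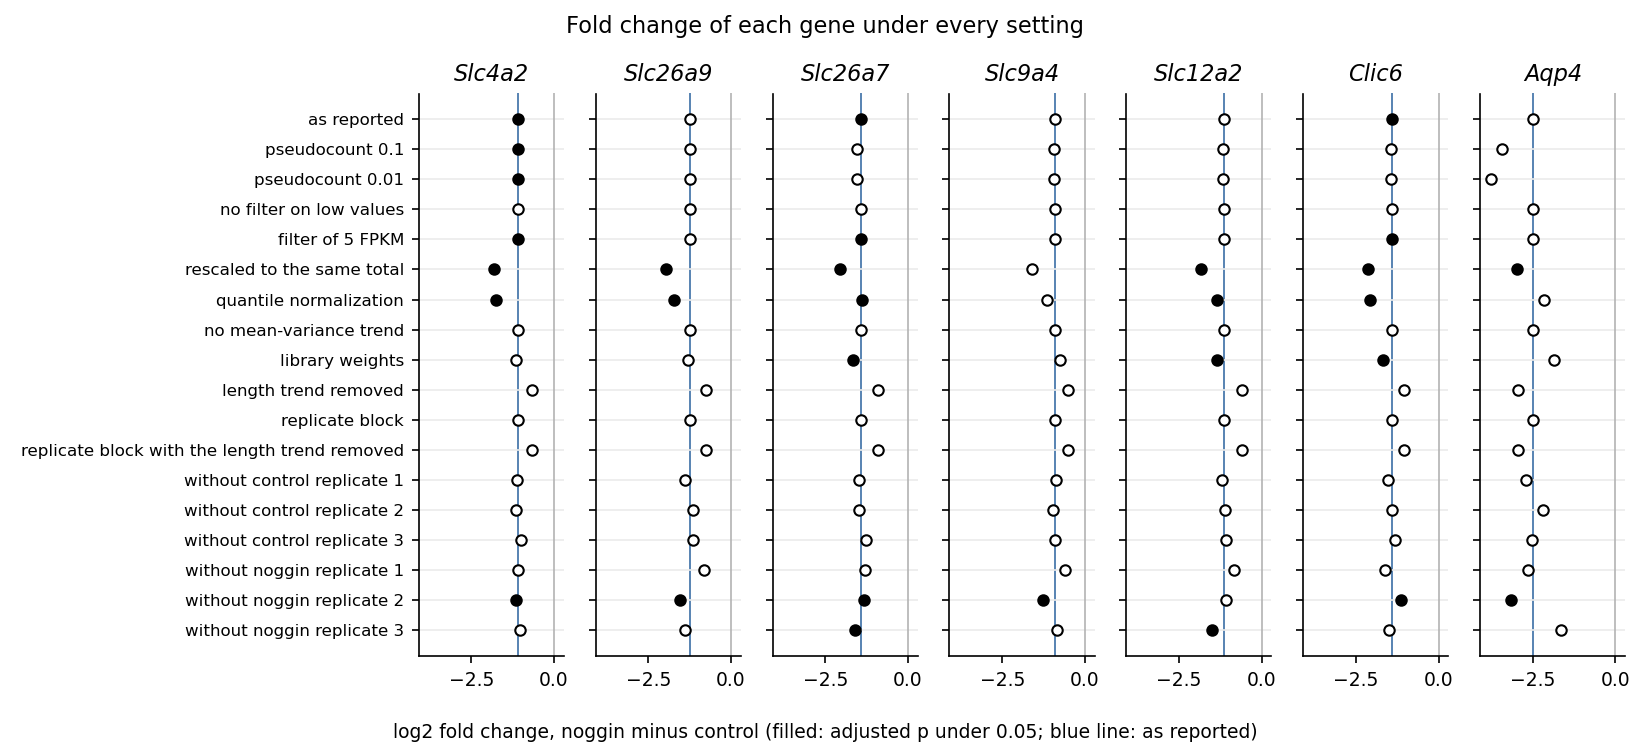
Log2 fold change (horizontal axes) of the 7 tested genes in the reported fit and under 17 alternative settings (rows), filled where the adjusted p is under 0.05. Every point lies below 0, and which points are filled changes with the setting and with the library left out. As the groups of each gene do not overlap, only rescaling, quantile normalization and removal of the length trend could turn a sign.

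Related transporters were read from lists of the same families and of the acid-secretion pathway, 102 genes in the table, of which 58 were tested. These lists too were chosen with earlier results of these data known. By limma 0 of these 58 were called lower and 2 higher, against 16 lower and 6 higher at an unadjusted p under 0.05, and their median log2 fold change was -0.42. Over all tested genes 1.75% were called higher, and 10.9% were lower and 15.8% higher at an unadjusted p under 0.05, the shares against which the counts of each list below stand. Slc12a8, a member of the cation-chloride cotransporter family, rose from 11.9 ± 1.14 to 31.6 ± 6.78 FPKM (log2 fold change 1.32, adjusted p = 0.0429). The other call was Aqp5, a water channel that also marks mucous neck cells, which rose from 13.3 ± 3.32 to 72.8 ± 36.1 FPKM (2.24, adjusted p = 0.0483) and thus lay opposite to Aqp4. Both calls ended when the length trend was removed (limma adjusted p = 0.064 for Slc12a8 and 0.0839 for Aqp5) and when control replicate 1, 2 or 3 or noggin replicate 1 was left out. After rescaling to the same total Slc12a8 was at 0.64 (limma adjusted p = 0.156) and Aqp5 at 1.55 (limma adjusted p = 0.0691). Without noggin replicate 2, 11 of the 58 were called lower and 4 higher, with 7.75% and 11.2% of all tested genes, and without noggin replicate 3, 4 lower and 3 higher, with 2.63% and 2.92% of all tested genes.

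The genes of the pump and of apical potassium recycling had 7 tested members, 0 called by limma and a median log2 fold change of -0.85. Potassium must return to the lumen for the pump to turn over, and the channel subunits Kcnq1 (-0.85, adjusted p = 0.0709), Kcnj15 (-0.98, adjusted p = 0.0624) and Kcnj16 (-0.90, adjusted p = 0.0739) each had 3 noggin values below 3 control values. At an unadjusted p under 0.05, 4 members of this list were lower. The sodium pump, which powers the basolateral sodium-coupled carriers, had 3 tested members, of which 0 were called by limma and 0 had an unadjusted p under 0.05. Its subunits Atp1b1 and Atp1b3 were at -0.13 and -0.01 and overlapped between groups.

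Among relatives of the anion exchangers, 2 other Slc4 genes were tested, the sodium-bicarbonate cotransporters Slc4a4 (1.79 ± 0.384 and 0.270 ± 0.255 FPKM, log2 fold change -1.15, limma adjusted p = 0.0817) and Slc4a7 (-0.51, limma adjusted p = 0.3). Slc4a4 was below 1 FPKM in every noggin library and passed the filter only through the controls, which favours a negative fold change. It is among the 16 related genes that were lower at an unadjusted p under 0.05. The tested Slc26 relatives were Slc26a2 (-0.68), Slc26a6 (-0.05) and Slc26a11 (-0.41), and all overlapped between groups. Slc26a6, an anion exchanger, was at 45 ± 3.79 and 47.3 ± 21.5 FPKM, more than Slc26a7 in either group. Of 5 other tested sodium-proton exchangers 0 were called and 1 was lower at an unadjusted p under 0.05. Slc9a2, the most abundant of them, was at 39.6 ± 1.41 and 29.2 ± 10.8 FPKM (-0.50, adjusted p = 0.303), and Slc9a8 was at -0.86.

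Of the other cation-chloride cotransporters 5 were tested, with a median log2 fold change of -1.30, 1 called higher (Slc12a8) and 0 lower by limma, against 3 lower at an unadjusted p under 0.05. Slc12a9, a further member of the family, was at -1.30 (adjusted p = 0.0923). Of the relatives of Clic6 3 were tested, 0 were called and 2 were higher at an unadjusted p under 0.05 by limma. Clic1 was at 0.66 (adjusted p = 0.123), but at -0.05 after rescaling to the same total, Clic3 at 1.66 (adjusted p = 0.0764) and Clic4 at -0.03 (adjusted p = 0.949). Of 9 tested chloride channels of other families 0 were called and 3 were lower at an unadjusted p under 0.05, among them the vesicular exchangers Clcn3 (-0.89, adjusted p = 0.081) and Clcn7 (-0.90, adjusted p = 0.112). Lrrc8b, a subunit of volume-regulated anion channels, was at -1.15 (adjusted p = 0.128).

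The other tested aquaporins beside Aqp5 were Aqp3 (0.17) and Aqp11 (0.40), which turned to -0.32 and -0.17 after rescaling to the same total, and both overlapped between groups. Carbonic anhydrases, which supply the bicarbonate that Slc4a2 carries out, had 8 tested members, 0 called by limma (2 higher at an unadjusted p under 0.05) and a median of 0.23. Car2, the abundant cytosolic one, had 1754 ± 244 FPKM in the control group and 3578 ± 116 FPKM in the noggin group (1.04, adjusted p = 0.0816), the opposite sign to Slc4a2. Car9 was at 0.78 (limma adjusted p = 0.122) and Car12 at 1.45 (limma adjusted p = 0.253). Car12 overlapped between groups, at 11.2, 6.88 and 0.39 FPKM in noggin replicates 1 to 3, the last below every control. Regulators of these carriers had 10 tested members, 0 called (4 lower at an unadjusted p under 0.05) and a median of -0.56. Ahcyl2, a relative of the protein IRBIT that binds several bicarbonate carriers, was at 150 ± 31.1 and 55.7 ± 22.4 FPKM (-1.46, adjusted p = 0.055). Wnk4, a kinase upstream of cation-chloride cotransporters, was at -1.52 (adjusted p = 0.1), and Ezr, the apical membrane linker ezrin, at -0.51 (adjusted p = 0.155).

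**Figure D5:**
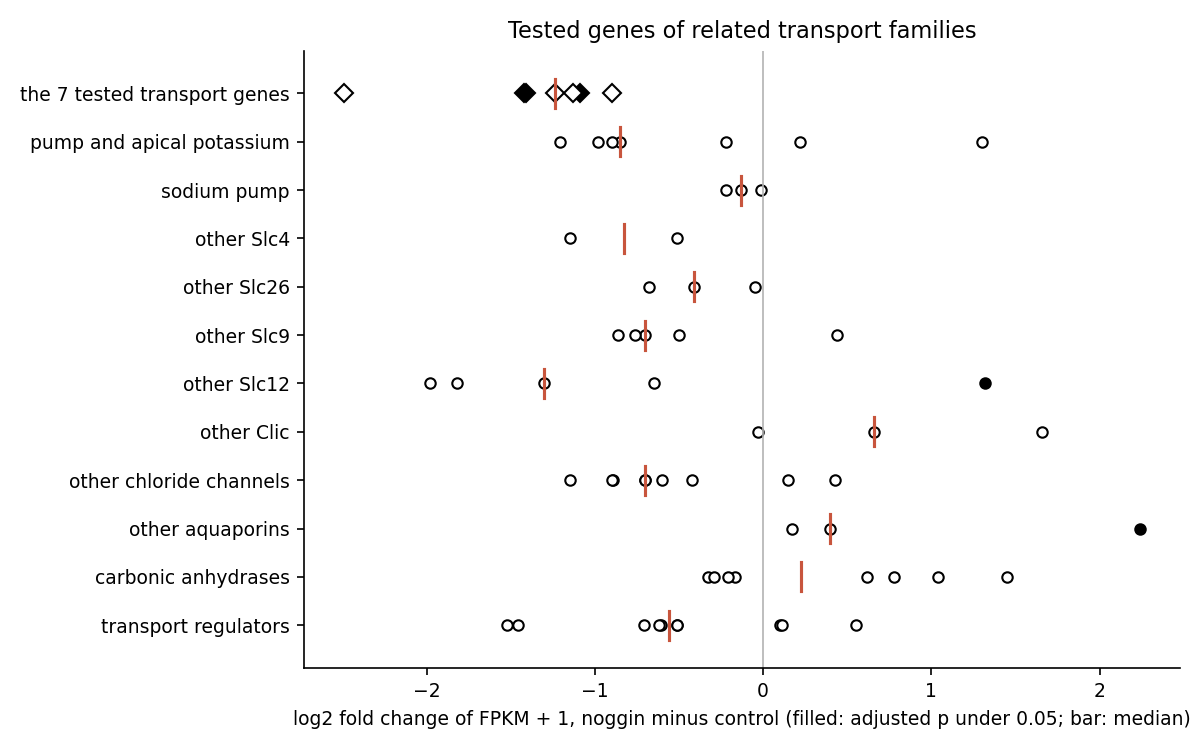
Log2 fold change (horizontal axis) of the 7 tested transport genes (diamonds) and of the 58 tested genes of 11 related lists (circles), filled where the adjusted p is under 0.05, with a bar at each median. The 7 genes lie between -2.49 and -0.90, and the filled circles at 1.32 and 2.24 are Slc12a8 and Aqp5.

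The genes most like each member over the 6 libraries, by Pearson correlation of log2(FPKM + 1), followed the pattern of single libraries within the noggin group. For Slc4a2 they were Bap1 (r = 0.998) and Hip1r (r = 0.997), both nearly level over the 3 noggin libraries. For Slc26a7 they were Tmem164 (r = 0.996) and March8 (r = 0.994), both highest in noggin replicate 3 within that group. For Slc26a9 they were Tsc22d2 and Vps33a (r = 0.998 each), and for Slc9a4 Shc1 (r = 0.999) and Irak1 (r = 0.996), which came close to controls in noggin replicate 2. For Slc12a2 they were Qk and Ppp6r3 (r = 0.996 each), for Clic6 Fam160b2 (r = 0.995) and Neat1 (r = 0.994), and for Aqp4 Ipo7 and Pik3r3 (r = 0.999 each), which were lowest in noggin replicate 3. Each is the best match among the 10644 tested genes over 6 points that fall into 2 groups, so a high r is given as a description. Among the 7 genes themselves r ran from 0.426 (Slc12a2 with Aqp4) to 0.934 (Slc4a2 with Slc26a7).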

How the data were processed

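The deposited table, made by the authors, holds FPKM per gene and library, a unit read from the name the table was deposited under. The submitters' processing notes name mm10, bcl2fastq and FastQC 0.10.0, and the sources used here name no aligner, quantifier or annotation. Per the labels' protocols, libraries were made with a SMART-Seq Ultra Low Input kit and sequenced from 1 end. No strand setting is stated, so antisense and overlapping genes cannot be told apart.

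Genes at 1 FPKM or more in 3 libraries were tested on log2(FPKM + 1) with limma 3.58.1 (R 4.3.3), two-sided, with a mean-variance trend and the group as the only term. Adjustment (Benjamini-Hochberg, threshold 0.05) ran over all tested genes. Ratios were compared by exact permutation. Transcript length was the median over GENCODE M21 basic transcripts (GRCm38, the same build as mm10), known for 10541 of 10644 tested genes. The length trend was a loess fit (span 0.5) per library to deviations from gene means. The fit was tested on simulated data with independent noise per gene, no length trend and no shift of whole libraries. That simulation does not cover these features of the real libraries.

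Alternatives covered pseudocounts of 0.1 and 0.01, no filter and 5 FPKM, scaling, the trend, library weights, length, a replicate block and each library left out. Named related genes are up to 3 tested genes per list, called ones first by size and then by unadjusted p, and the 2 best correlated genes per member without predicted genes. Genes outside this rule are marked as such, and some genes that the rule names are not reported here. The members and lists were chosen with earlier results of these data known.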

Additional observations from a re-analysis of the deposited data

How the results depend on the processing

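The 3 calls among the 7 tested genes depended on the settings. With a pseudocount of 0.1 or 0.01, limma called 1 (Slc4a2), and 0.244% and 0.197% of all tested genes lower, against 0.695% as reported. It called 6 after rescaling to the same total and 5 with quantile normalization, with 7.7% and 2.17% of all tested genes called lower. After rescaling, the median over all tested genes, -0.03 as reported, was -0.63. Limma called 0 without a filter on low values, without the mean-variance trend and with the length trend removed. The shares of all genes fitted that were called lower were 0.0202%, 0.16% and 0.199%. In these 3 settings 8, 7 and 4 genes had an unadjusted p under 0.05, as had 16.4%, 26.0% and 16.6% of all genes fitted. Cftr, with a positive fold change, was among the 8. The number called was 3 with the filter of 5 FPKM and with library weights (1.09% and 0.62% of all genes fitted called lower). With library weights Slc12a2 stood in place of Slc4a2. Leaving out 1 library gave 0 to 6, with 0.047% to 7.75% of all tested genes called lower. With the replicate number as a block (replicate block) 0 were called, and 0 with the block and the length trend removed (7 and 5 at an unadjusted p under 0.05, as were 23.1% and 14.4% of all genes fitted). Of all genes fitted, 0.301% and 0.142% were called lower with the block and with both. Deviations of same-numbered libraries correlated at 0.105, -0.141 and 0.00519, and the highest value was that of control replicate 2 with noggin replicate 3 (0.12). With 3 libraries a group, such values cannot decide whether same-numbered libraries were paired. The adjusted p over the 17 alternatives ran from 0.0114 to 0.236 for Slc4a2, 0.0276 to 0.336 for Slc26a7 and 0.00538 to 0.252 for Clic6, and the log2 fold changes from -1.81 to -0.66, -2.06 to -0.89 and -2.14 to -1.05. No log2 fold change of these 7 genes, Slc12a8 or Aqp5 changed sign in any alternative. As their groups did not overlap, only rescaling, quantile normalization and removal of the length trend could have changed one. For Slc12a8 and Aqp5, read after seeing the data, limma adjusted p ran from 0.0234 to 0.229 and 0.0103 to 0.214. Among the 58 related genes the count called lower was 17 after rescaling, 9 with quantile normalization, and otherwise, with no library left out, 0 or 1. Where a cause is not plain from the setting itself, the cause was not tested.

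The number of ratios to Slc4a2 that did not overlap between groups was 2 with the length trend removed, with 45.6% of all tested genes. There Aqp4, taken at its annotated median length of 1281.5 bases, joined Cftr. The number was 1 to 3 when 1 library was left out, with 58.7% to 73.6% of all tested genes. The Slc12a2 ratio difference, -0.07, turned to 0.05 with the length trend removed and to 0.04 against Atp4a. Leaving out 1 library gave -0.51 to 0.24 for Slc12a2, -0.39 to 0.30 for Slc26a9, -0.14 to 0.48 for Slc9a4 and -0.52 to 0.00 for Clic6. Sequencing depth is unknown, which limits the levels of Cftr and of Aqp4 in noggin replicate 3 most.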

Other observations

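Slc12a7, the potassium-chloride cotransporter KCC4, lies outside the rule for named genes and was picked out with its values known. Its level was 114, 116 and 148 FPKM in control replicates 1 to 3 and 49.2, 67.2 and 12.4 FPKM in noggin replicates 1 to 3, without overlap. The control mean of 126 FPKM lay above those of Slc9a4 and Slc12a2. The log2 fold change was -1.82 (limma adjusted p = 0.107), and -1.3 with the length trend removed (limma adjusted p = 0.253). Within the noggin group, replicate 3 was the lowest for both Aqp4 and Slc12a7. The same library held the highest noggin level of Slc12a2, at 44.1 FPKM, and of Slc26a7, at 8.11 FPKM.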
